A study of Mus musculus with 12 samples.

Results

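Butyrate uptake, ketogenesis and fatty acid oxidation were followed through 9 genes, Slc16a1, Slc5a8, Cpt1a, Acads, Acadm, Ppara, Pparg, Ppargc1a and Angptl4, chosen by name. All 9 stood among the 32689 genes of the normalized colon table, 8 of them, without Ppara, stood among the 25514 genes of the blood table, and all 9 were in the table of 53801 counted genes. Total RNA-seq had been made from colon and whole blood of male C57BL/6 mice, 8 weeks old when obtained, under the dextran sulfate sodium (DSS) model of ulcerative colitis (UC). Given by mouth in drinking water, this polymer injures the lining of the gut. UC mice drank 1.5% DSS for 7 days, control mice drank water without it, and all were killed on day 8. The study chose the mice by their disease activity index, a clinical score. The 12 libraries form 4 labelled groups of 3, UC colon and UC blood (mice 1, 2 and 4) and control colon and control blood (mice 7, 8 and 9).

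Butyrate, made by gut bacteria from fibre, is a main fuel of colonocytes. It enters the cell through monocarboxylate transporters, is joined to coenzyme A and is broken down by mitochondrial beta-oxidation, and part of the resulting acetyl-CoA can leave as ketone bodies. Peroxisome proliferator-activated receptors (PPARs), nuclear receptors that bind fatty acids, and the coactivator encoded by Ppargc1a drive many genes of this pathway.

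The labels did not sort the colon libraries by their level of neutrophil genes. The normalized count of S100a8, a neutrophil gene, was 5370, 33.1 and 22.3 in mice 1, 2 and 4, labelled UC. It was 1888, 75.6 and 13337 in mice 7, 8 and 9, labelled control. The summed level of 6 neutrophil genes ran from 95.8 to 12416 in the libraries labelled UC and from 281 to 39475 in those labelled control. The deposited normalized tables list the mice in the order 1, 7, 9, 2, 4, 8, which is not the order of the disease labels. In that order, the sum of the 6 neutrophil genes in the colon was 12416, 5295 and 39475, then 95.8, 139 and 281. In blood it was 448235, 151974 and 351015, then 51821, 47118 and 39076. Whether each label names the treatment its mouse received cannot be told from these files, so each log2FC by label describes the labels as deposited, not the effect of DSS. Values are therefore given for every library. The tissue also stands in 2 fields of the labels, which contradict each other, and groups follow the tissue characteristic. Its colon libraries summed to between 538008 and 810811 normalized counts over 7 epithelial genes and to between 516 and 4005 over 4 red cell genes, and its blood libraries to between 72.7 and 200.2 over 6 of those epithelial genes that the blood table holds and to at least 3932850 over the red cell genes. The total count per library lay between 69181049 and 103662306 in the colon and between 80867247 and 142536804 in the blood, where 7SL RNA took 35.9% to 65.4% of it against 4.90% to 6.50% in the colon.

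Slc16a1 (ENSMUSG00000032902, GRCm38 chr3:104638668-104658462, plus strand) encodes MCT1, the proton-coupled monocarboxylate transporter, and Slc5a8 (ENSMUSG00000020062, chr10:88885992-88929515, plus strand) encodes SMCT1, its sodium-coupled counterpart of the colonocyte's luminal membrane. Ppargc1a (ENSMUSG00000029167, chr5:51454250-51567726, minus strand) encodes PGC-1alpha, a coactivator of PPARs and of mitochondrial biogenesis. These 3 genes are shown with their promoters because each had its 3 highest colon levels in mice 2, 4 and 8, and Cpt1a because its level varied least of the 9 genes. Each window holds 250 bases before and 50 after a RefSeq start (GRCm38.p6), 5′ to 3′ on the strand of the gene. Capitals mark GGGCGG (a GC box), AGGTCA (the element nuclear receptors bind singly or in pairs), CACGTG (an E-box) and TGACG (the core of a cyclic AMP response element), searched on both strands, so that the reverse complements of these letters are in capitals too. No 2 of the marked stretches overlap in the windows shown.
Slc16a1, chr3:104638414-104638713, plus strand: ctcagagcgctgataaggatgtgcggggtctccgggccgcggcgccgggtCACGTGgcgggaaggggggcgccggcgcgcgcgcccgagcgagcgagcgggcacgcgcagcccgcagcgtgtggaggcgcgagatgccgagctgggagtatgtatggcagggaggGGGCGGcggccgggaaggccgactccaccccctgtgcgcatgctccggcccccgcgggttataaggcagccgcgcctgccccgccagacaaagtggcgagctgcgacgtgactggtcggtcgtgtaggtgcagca
Slc5a8, chr10:88885742-88886041, plus strand: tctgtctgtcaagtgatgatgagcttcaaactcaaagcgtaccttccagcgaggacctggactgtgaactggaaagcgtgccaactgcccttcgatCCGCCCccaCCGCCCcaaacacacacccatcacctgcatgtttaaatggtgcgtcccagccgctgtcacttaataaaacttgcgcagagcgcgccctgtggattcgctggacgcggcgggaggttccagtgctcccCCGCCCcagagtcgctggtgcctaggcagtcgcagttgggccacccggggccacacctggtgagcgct
Ppargc1a, chr5:51567676-51567975, minus strand: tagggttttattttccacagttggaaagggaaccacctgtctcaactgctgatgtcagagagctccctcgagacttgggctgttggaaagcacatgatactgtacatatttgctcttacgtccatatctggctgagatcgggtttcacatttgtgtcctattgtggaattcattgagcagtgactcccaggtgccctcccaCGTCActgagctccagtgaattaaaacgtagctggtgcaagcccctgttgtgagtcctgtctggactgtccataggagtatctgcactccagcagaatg
Cpt1a, chr19:3323051-3323350, plus strand: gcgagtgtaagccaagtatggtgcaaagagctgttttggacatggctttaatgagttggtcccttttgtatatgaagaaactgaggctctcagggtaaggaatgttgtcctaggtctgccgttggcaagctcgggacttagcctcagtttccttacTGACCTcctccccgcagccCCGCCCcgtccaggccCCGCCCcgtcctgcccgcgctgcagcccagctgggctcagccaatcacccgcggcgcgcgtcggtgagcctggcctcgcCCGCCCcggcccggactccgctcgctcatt

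The windows of the 3 genes that shared their highest libraries differed in these letters. The Slc16a1 window held 1 GC box and 1 E-box, with 73.7% G and C bases. The Slc5a8 window held 3 GC boxes and no other of these motifs. The Ppargc1a window held no GC box and 1 TGACG, with 48.7% G and C bases, against a median of 52.7% over the 32851 windows of the table. A GC box stood in 35.7% of those windows, AGGTCA in 16.3%, CACGTG in 7.15% and TGACG in 20.8%. Cpt1a held 3 GC boxes and 1 AGGTCA. An exact match to AGGTCANAGGTCA, a paired element that PPARs bind, was in none of the 10 windows of the 8 matched genes, on either strand. It was in only 0.0396% of all windows, so its absence from 10 windows says nothing about these genes. Inexact matches were not searched. The table has no entry for Angptl4. The letters are a description of these windows, and the motifs were chosen after the windows had been read.

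Both butyrate transporters were at high levels in mice 2, 4 and 8 and at lower levels in mice 1, 7 and 9. The normalized count of Slc16a1 was 21811, 45780 and 46102 in the colon libraries labelled UC (mice 1, 2 and 4). In those labelled control (mice 7, 8 and 9) it had 24144, 42585 and 20966. Each labelled group therefore held low and high libraries, and the groups overlapped. The 6 libraries spanned 2.20-fold, and the 3 lowest libraries (9, 1 and 7) were those with the 3 highest S100a8 counts. Labelled UC against control gave a log2FC of 0.36 (SE 0.40, n = 3 per group, adjusted p = 0.9999 by edgeR's quasi-likelihood test). It moved between 0.16 without mouse 9 and 0.75 without mouse 8.

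Slc5a8 followed the same division, over a wider range. It had 22013, 49467 and 41951 normalized counts in mice 1, 2 and 4, and 14842, 35794 and 20940 in mice 7, 8 and 9. The span was 3.33-fold, with mouse 7 lowest and mouse 2 highest. The log2FC by label was 0.65 (SE 0.43, n = 3 per group, adjusted p = 0.9999 by the quasi-likelihood test), from 0.40 without mouse 7 to 1.08 without mouse 8. Over the 6 colon libraries the profile of Slc16a1 was nearest to that of Slc5a8 among the 9 genes, with a root mean square difference of 0.268 on the centred log2 scale. Per length, Slc5a8 stood at 0.838, 0.897 and 0.755 of the Slc16a1 level in mice 1, 2 and 4, at 0.510 in mouse 7, 0.698 in mouse 8 and 0.829 in mouse 9. The ratio was lowest in mouse 7, and the length-scaled level of Slc16a1 was above that of Slc5a8 in 6 of 6 libraries.

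Some genes of absorptive colonocytes were high in the same libraries as the transporters. The sum of 8 of them was 914279, 506620 and 759664 normalized counts in mice 1, 2 and 4 and 1110580, 864819 and 328316 in mice 7, 8 and 9, which did not follow the transporters, and none was at 0 in any colon library. Slc26a3, the chloride exchanger of surface colonocytes, had 25107, 72441 and 132812 in mice 1, 2 and 4 and 35702, 128020 and 27095 in mice 7, 8 and 9. It was high in the same libraries as both transporters, as were Aqp8, Car4 and Muc3. Car1, the most abundant gene of the list, had 580934, 149804 and 234522 against 740809, 308201 and 60215, and was highest in mice 7 and 1, as were Krt20 and Guca2a. Ceacam20 did neither, with 21047, 17768 and 31595 in mice 1, 2 and 4 and 15451, 29058 and 23670 in mice 7, 8 and 9. The part of colonocyte number or state in the transporter levels was not tested.

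**Figure D1:**
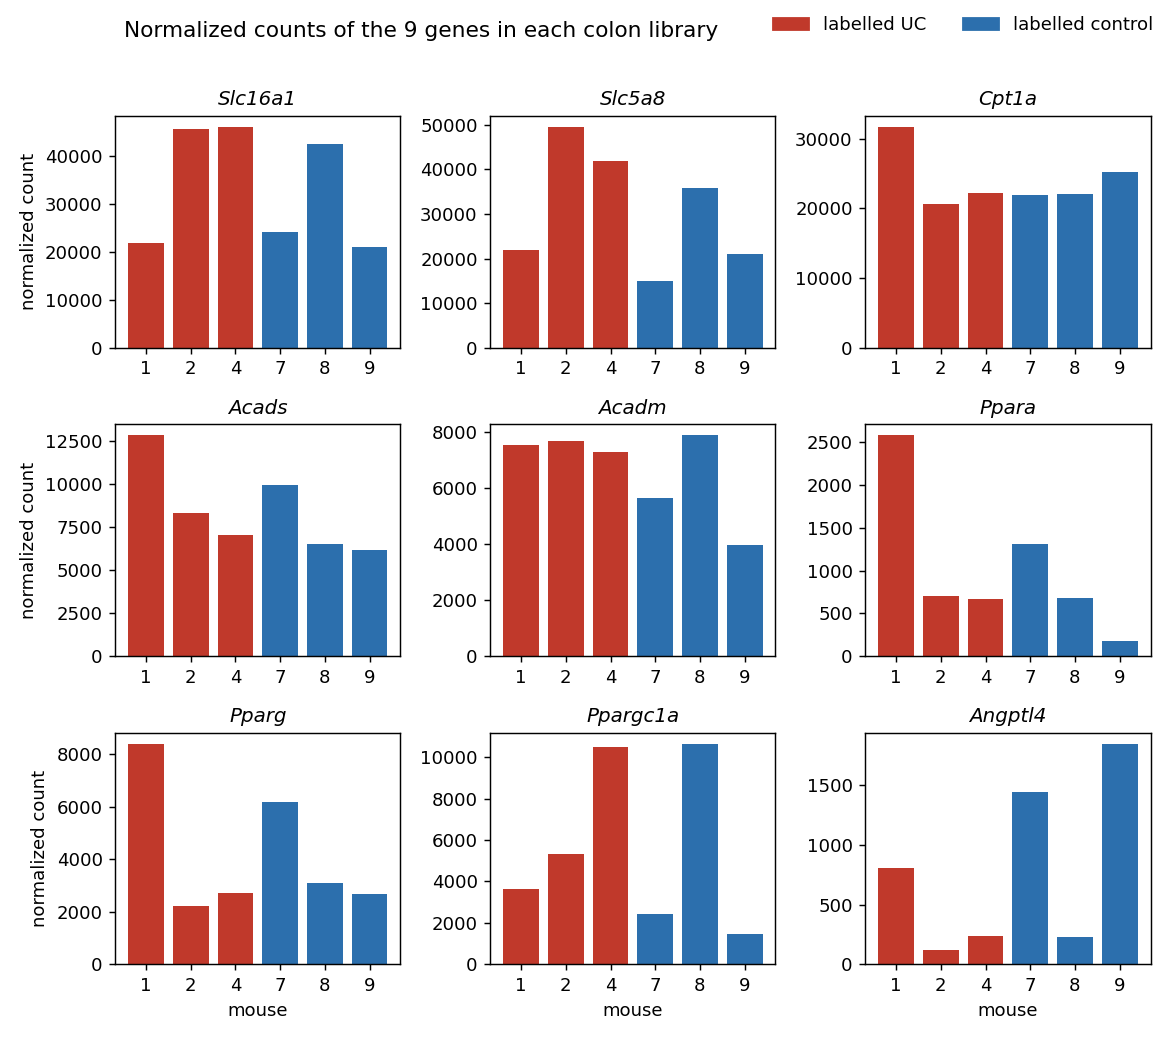
Normalized counts (vertical axes, each from 0) of the 9 genes in the 6 colon libraries (horizontal axes, mouse number), 1 bar per library, red for libraries labelled UC and blue for those labelled control. Slc16a1, Slc5a8 and Ppargc1a are highest in mice 2, 4 and 8, Ppara and Pparg in mouse 1 followed by mouse 7, and Angptl4 in mice 9, 7 and 1, so high and low libraries occur under both labels.

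Cpt1a (ENSMUSG00000024900, chr19:3322334-3385733, plus strand) encodes carnitine palmitoyltransferase 1A, which commits long-chain fatty acids to entry into mitochondria, a step butyrate does not need. It varied least of the 9 genes, 1.53-fold. Mice 1, 2 and 4 had 31682, 20658 and 22150 normalized counts, and mice 7, 8 and 9 had 21944, 22116 and 25265. Mouse 1 stood above the others. The log2FC by label was 0.09 (SE 0.21, n = 3 per group, adjusted p = 0.9999 by edgeR's quasi-likelihood test), and -0.12 without mouse 1.

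Acads (ENSMUSG00000029545, chr5:115110299-115119346, minus strand) encodes short-chain acyl-CoA dehydrogenase, the enzyme that oxidises butyryl-CoA. It was highest in mice 1 and 7, with 12795 and 9918 normalized counts. The other libraries had 8324 (mouse 2), 6990 (mouse 4), 6480 (mouse 8) and 6152 (mouse 9). The enzyme gene ran low where the transporters ran high in mice 4 and 8, and high where they ran low in mice 1 and 7. Mouse 2 went against this, being among the 3 highest libraries for Acads and for both transporters, and mouse 9 was low for all 3. The span of Acads was 2.08-fold, and its log2FC by label was 0.30 (SE 0.30, n = 3 per group, adjusted p = 0.9999 by the quasi-likelihood test). It was 0.0125 without mouse 1 and 0.56 without mouse 7.

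Acadm (ENSMUSG00000062908, chr3:153922357-153944632, minus strand) encodes the medium-chain acyl-CoA dehydrogenase. It had 7539, 7672 and 7267 normalized counts in mice 1, 2 and 4, and 5636, 7865 and 3969 in mice 7, 8 and 9. The libraries labelled UC spanned 1.06-fold and those labelled control 1.98-fold. Mouse 9 was lowest, as for Acads. The log2FC by label was 0.34 (SE 0.27, n = 3 per group, adjusted p = 0.9999 by the quasi-likelihood test), and it was 0.13 without mouse 9 and 0.64 without mouse 8. Per length, Acads stood at 2.93, 1.87 and 1.66 times the Acadm level in mice 1, 2 and 4, and at 3.03, 1.42 and 2.67 times in mice 7, 8 and 9. The ratio was above 2.5 in mice 1, 7 and 9 and under 2 in the others.

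Pparg (ENSMUSG00000000440, chr6:115360951-115490399, plus strand) encodes PPAR-gamma, the receptor abundant in colonocytes and in fat cells. Its normalized counts were 8392, 2224 and 2722 in mice 1, 2 and 4, and 6165, 3102 and 2668 in mice 7, 8 and 9. Mice 1 and 7, which carry different labels, stood above the rest. The log2FC by label was 0.14 (SE 0.59, n = 3 per group, adjusted p = 0.9999 by the quasi-likelihood test), and it was -0.70 without mouse 1 and -0.09 without mouse 9.

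Ppara (ENSMUSG00000022383, chr15:85734983-85802819, plus strand) encodes PPAR-alpha, the main inducer of fatty acid oxidation and ketogenesis in fasting liver. It had 2582, 703 and 665 normalized counts in mice 1, 2 and 4, and 1306, 682 and 178 in mice 7, 8 and 9. The order at the top was that of Pparg, but mouse 9 was lowest by a wide margin, and the span was 14.5-fold. Per length, Pparg stood at 19.5 times the Ppara level in mouse 9 and at 4.11 to 6.13 times in the other 5 libraries. The log2FC of Ppara by label was 0.84 (SE 0.83, n = 3 per group, adjusted p = 0.9999 by the quasi-likelihood test), and it was -0.10 without mouse 1.

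Markers of other cells moved with these receptors in part. The sum of 8 adipocyte genes was 14457 in mouse 1, 1580 in mouse 2, 1166 in mouse 4, 2952 in mouse 7, 1558 in mouse 8 and 2532 in mouse 9. None of the 8 was at 0 in every library, and Cfd, the most abundant, had 7955 normalized counts in mouse 1 and 331 to 1216 elsewhere. The sum of 4 small intestine genes was 2115 in mouse 1 and 1696 in mouse 7, against 180.2 to 226 in the other libraries, and most of it was Alpi, the intestinal alkaline phosphatase, with 1881 and 1278 there against 22.6 to 74.7. Apoa4, a defining gene of that list, was at 0 in mice 4, 7, 8 and 9. The sum of 6 smooth muscle genes was lowest in mouse 9, at 128101, against 228690 to 534676. The part of these in the levels of Pparg and Ppara was not tested. In bulk tissue, fewer cells of a type and less RNA per cell cannot be told apart.

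Among the 9 genes, Ppargc1a had the widest span of the 3 that were highest in mice 2, 4 and 8. Its normalized counts were 3623, 5321 and 10486 in mice 1, 2 and 4. In mice 7, 8 and 9 they were 2441, 10658 and 1474. Mice 4 and 8, of different labels, were alike and highest, mouse 9 was lowest, and the span was 7.23-fold. The log2FC by label was 0.39 (SE 0.79, n = 3 per group, adjusted p = 0.9999 by the quasi-likelihood test), and it was -0.13 without mouse 4 and -0.03 without mouse 9. Among the 9 genes its profile was nearest to those of Slc16a1 (root mean square difference 0.650) and Slc5a8 (0.701). In these 6 libraries the coactivator and the receptor Pparg had no library in common among their highest 3 other than mouse 8.

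Angptl4 (ENSMUSG00000002289, chr17:33773750-33781830, minus strand) encodes a secreted inhibitor of lipoprotein lipase and is a classical PPAR target that short-chain fatty acids and low oxygen also raise. It had 803, 122 and 234 normalized counts in mice 1, 2 and 4, and 1440, 229 and 1846 in mice 7, 8 and 9. Mice 9, 7 and 1 were high and the others low, a 15.1-fold span, and these 3 were also the libraries with the highest S100a8 and the highest sum of 6 macrophage genes (18410, 26541 and 27492 in mice 1, 7 and 9 against 8363 to 10360). The part of these cells in the Angptl4 level was not tested. The log2FC by label was -1.61 (SE 0.93, n = 3 per group, adjusted p = 0.9999 by the quasi-likelihood test), the only one of the 9 below 0, and leaving out mouse 1 gave -2.72 and leaving out mouse 9 gave -1.15. The groups overlapped, since mouse 1 was above mouse 8.

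None of the 9 genes was called by label in the colon, where a call needed both an absolute log2FC over 1 and an adjusted p no higher than 0.05. Of all 22238 genes tested there, edgeR called 0.0045%, which is 1 gene, and 313 genes (1.41%) were under 0.05 by unadjusted p, the 9 not among them. That number rested on single libraries, with 1942 genes without mouse 8, 795 without mouse 1 and 202 without mouse 2. DESeq2 called 2 genes higher and 4 lower over all genes, limma-voom 0, and neither called any of the 9. No gene of the 9 had labelled groups that did not overlap, against 5.67% of all genes tested. The median log2FC of the 9 was 0.34, with 8 above 0, beside a median of -0.01 over all genes.

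**Figure D2:**
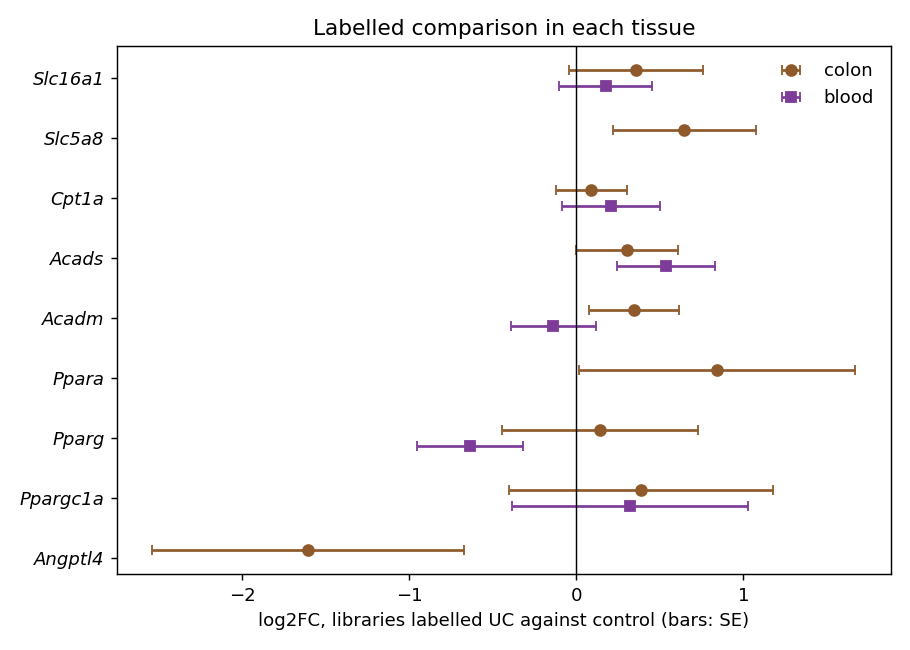
The log2FC of libraries labelled UC against control (horizontal axis, positive where UC was higher) for each of the 9 genes (vertical axis), circles for colon and squares for blood, with bars of 1 SE. In the colon, values run from -1.61 for Angptl4 to 0.84 for Ppara; only 6 genes have a blood value, which runs from -0.64 for Pparg to 0.54 for Acads.

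The rest of the pathway was read from 9 lists of 103 genes, of which 93 were tested in the colon. By label, none of the 93 was called higher or lower, and their median log2FC was 0.085. An unadjusted p under 0.05 was found for Echs1, the enoyl-CoA hydratase of beta-oxidation, with a log2FC of 0.47 (SE 0.16), and for Creb3l3, a regulator that partners PPAR-alpha, with -1.43 (SE 0.53), both with an adjusted p of 0.9999 in edgeR. Echs1 had 8565, 9180 and 9673 normalized counts in mice 1, 2 and 4 and 6097, 7323 and 6149 in mice 7, 8 and 9. It was higher in every library labelled UC than in any labelled control, as were Cd36, Acss1, Crat, Etfdh, Hadh, Decr1 and Ehhadh. Creb3l3 had 227, 76.6 and 212 against 656, 262 and 459, lower in every library labelled UC. Of all 22238 genes tested in the colon, 5.67% had labelled groups that did not overlap and 1.41% an unadjusted p under 0.05 in edgeR.

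Variation between libraries was unevenly spread over the pathway. Genes with a mean of at least 100 normalized counts had a median span over the 6 libraries of 1.86-fold across the whole table. The 9 genes had a median span of 3.33-fold, and among the other pathway genes, PPAR targets had 6.79-fold (11 genes), acyl-CoA activation 4.17-fold (11 genes) and uptake 3.29-fold (8 genes). The receptors spanned most, 22.2-fold, but only Ffar2 (8.91) and Hcar2 (35.4) reached the mean. The 16 genes of mitochondrial beta-oxidation spanned 1.70-fold, from 1.20 for Acadsb to 2.45 for Acad10, and the 13 regulators of PPARs 1.54-fold. These lists do not hold the 9 genes, so Acads and Acadm are not counted under oxidation, nor Ppara, Pparg and Ppargc1a, with their wider spans, under regulators.

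PPAR targets of lipid handling differed in span and in order. Acot1 spanned 1.49-fold. Plin2 was highest in mice 4 and 8, with 26196 and 23073 normalized counts against 7390 to 12352 in the others. Fabp2, the intestinal fatty acid binding protein, had 12105 and 21076 normalized counts in mice 1 and 7, which were also the highest for Pparg and Ppara, and 350 to 710 in the others, a 60.0-fold span. Pdk4, the kinase that turns off pyruvate oxidation, was also highest there, with 1585 and 2343 against 385 to 717. These are the libraries in which the Alpi level was high.

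Acsm3, a mitochondrial enzyme that joins medium-chain fatty acids to coenzyme A, ran the other way. It had 4991, 21733 and 24264 normalized counts in mice 1, 2 and 4 and 2780, 23842 and 11026 in mice 7, 8 and 9. Acss2, which makes acetyl-CoA from acetate, had 4733, 15101 and 13652 in mice 1, 2 and 4 and 3260, 12250 and 4392 in mice 7, 8 and 9. Both were low in mice 1, 7 and 9 as the butyrate transporters were. Acsl4, which activates arachidonic acid, had 2965, 1745 and 1266 against 5464, 1513 and 4907, highest in mice 7, 9 and 1.

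Receptors and partners of transporters differed among libraries too. Hcar2, a receptor for butyrate and beta-hydroxybutyrate that neutrophils and macrophages also carry, had 226, 32.2 and 14.0 normalized counts in mice 1, 2 and 4 and 86.0, 30.2 and 531 in mice 7, 8 and 9. Emb (embigin), a chaperone of monocarboxylate transporters, had 1163, 348 and 351 against 1175, 248 and 1908. Slc16a3, the lactate exporter MCT4, was lowest in mouse 2 at 773 and highest in mouse 9 at 2711, with the other libraries between 1047 and 2203. S100a8 was highest in mice 9, 1 and 7, the libraries that were also highest for Hcar2 and Emb. The part of neutrophils and macrophages in these levels was not tested.

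The order of the libraries was counted gene by gene. Of the 9 genes, 3 had their highest 3 libraries in mice 2, 4 and 8, and 1 (Angptl4) in mice 1, 7 and 9. Of the 93 pathway genes with a mean of at least 10 normalized counts, 20 (21.5%) had them in mice 1, 7 and 9 and 8 (8.6%) in mice 2, 4 and 8. Of all 21907 genes with that mean, the shares were 18.3% and 14.8%. No test was made of these counts, since the sets of libraries are not labelled groups.

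Genes with colon profiles most like those of the 9 were found among 13702 genes by the root mean square difference of centred log2 levels over the 6 libraries. Slc16a1 was nearest to Ebpl (0.091), Ankrd24 (0.115) and Cfap300 (0.115). Slc5a8 was nearest to Steap3 (0.096), Atp6v0e2 (0.097) and Pxylp1 (0.109), and Acads to Rab36 (0.049), Miga1 (0.072) and Mlxip (0.082). Of the receptors, Pparg was nearest to Slc18a1 (0.109), Papss2 (0.135) and Stard5 (0.159), and Ppara to Igdcc4 (0.135), Adgrg2 (0.223) and Ugdh (0.295). Ppargc1a was nearest to Smim24 (0.157), Tinag (0.165) and Slc26a2 (0.175), the last a sulfate transporter of colonocytes that had 44898 to 250730 normalized counts. Angptl4 was nearest to Igsf6 (0.097), Tfec (0.171) and Fcgr2b (0.219), the last an Fc receptor of myeloid and B cells. These differences are descriptions over 6 libraries, and within a library all genes share its depth and its mixture of cells.

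Levels between genes were compared per length, as CPM (the count as a share of the library's total, scaled to 1e6) per kilobase of exon. In the colon, Slc16a1 led at 88.5 ± 32.6 (SD, n = 6), followed by Slc5a8 at 67.8 ± 30.9, Acads at 43.4 ± 12.3 and Cpt1a at 36.7 ± 6.43. Acadm was at 19.8 ± 4.14, Pparg at 16.5 ± 9.35, Ppargc1a at 9.86 ± 6.72, Ppara at 3.05 ± 2.48 and Angptl4 at 2.64 ± 2.56. Slc16a1 was above Slc5a8, and Cpt1a above Acadm, in 6 of 6 libraries. Every other pair of neighbours changed places in at least 1 library, Pparg and Ppargc1a in 3 of 6, so that order was not fixed beyond the spread.

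The blood was compared with the colon to show in which tissue the pathway is expressed. Of all 23258 genes tested, 37.7% were called higher in the colon and 20.8% lower. Slc5a8, Ppara and Angptl4 passed the filter on low counts only through the colon, so that they had to differ, and they are given below by their counts. The other 6 genes passed it in each tissue alone and were all called higher in the colon, as 22.8% of the 15802 genes that passed it in both were, with 25.6% lower. The median log2FC of all genes was 0.459, so values are read against that shift. The colon libraries were depleted of ribosomal RNA and the blood libraries of globin RNA as well, so tissue and kit cannot be told apart.

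The smallest tissue differences were those of Acadm and Slc16a1. Acadm had 36.9 ± 8.38 TMM-scaled CPM in the colon and 14.2 ± 2.49 in the blood (SD, n = 6), a log2FC of 1.37 (SE 0.19, adjusted p = 6.55e-05 by edgeR's quasi-likelihood test). Slc16a1 had 185.7 ± 67.1 in the colon and 61.8 ± 13.2 in the blood, with a log2FC of 1.58 (SE 0.25, adjusted p = 0.0002086 by edgeR). Cpt1a had a log2FC of 2.11 (SE 0.21), Acads of 4.01 (SE 0.24) and Pparg of 4.22 (SE 0.39), with adjusted p-values of 4.98e-06, 1.81e-07 and 2.96e-06 in edgeR. The transporter of many tissues, Slc16a1, was thus also well expressed in blood. The short-chain dehydrogenase gene Acads stood 15.9-fold higher in colon by mean TMM-scaled CPM.

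Slc5a8, Ppara, Ppargc1a and Angptl4 were near or at the limit of detection in blood. Slc5a8 had 0 counts in 5 blood libraries and 12 counts in mouse 9, against a colon mean of 170 ± 73.2 TMM-scaled CPM. Ppara had 0 counts in all 6 blood libraries. Against a floor of 3 counts per blood library (a mean of 0.0553 TMM-scaled CPM), its colon mean of 5.67 TMM-scaled CPM was at least 102.6-fold higher. Ppargc1a had 9 to 57 counts per blood library, and the log2FC was 6.07 (SE 0.65, adjusted p = 1.04e-05 in edgeR). Angptl4 had 0 to 45 counts per blood library, with 2 libraries at 0, against a colon mean of 4.35 ± 4.05 TMM-scaled CPM.

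**Figure D3:**
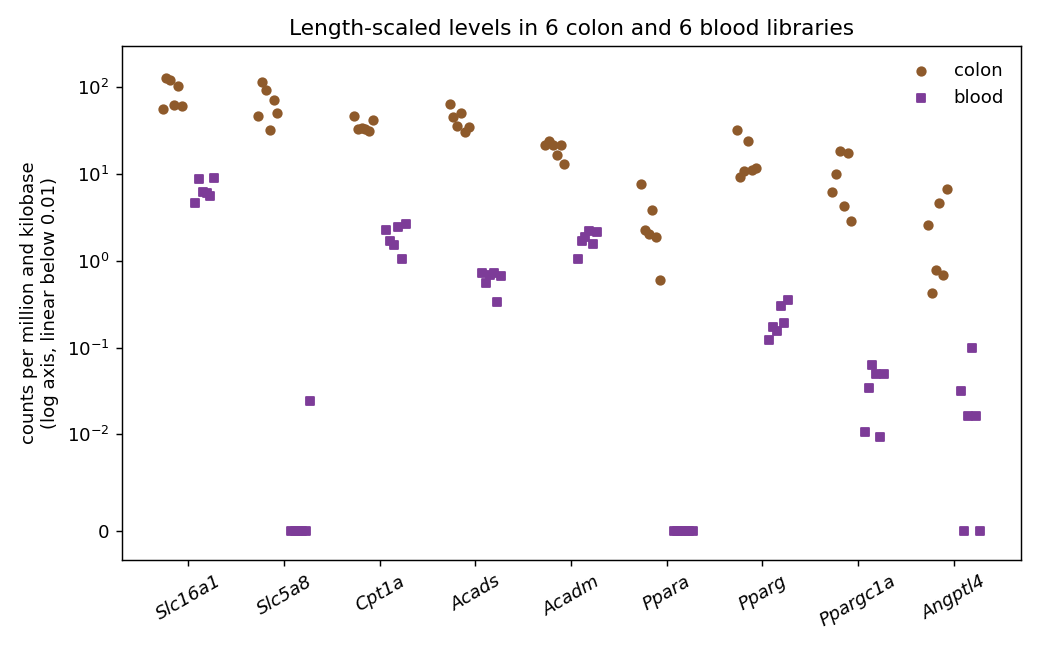
CPM per kilobase of exon (vertical axis, logarithmic above 0.01 and linear below) of the 9 genes in the 6 colon libraries (circles) and 6 blood libraries (squares), 1 point per library. Every colon point lies above every blood point of its gene, and all 6 blood libraries are at 0 for Ppara and 5 for Slc5a8. These CPM are not TMM-scaled, so distances between tissues are wider than those given in the text. Slc16a1 averaged 88.5 in the colon and 6.7 in the blood here, against 185.7 and 61.8 by TMM-scaled CPM.

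Of the 93 pathway genes tested, 76 passed the filter in each tissue alone, and of these 39 were called higher in the colon and 11 lower. Of all 15802 genes that passed it in both tissues, 22.8% were called higher and 25.6% lower. The counts by list below stand beside these shares and were not tested. Mitochondrial beta-oxidation had 12 of 16 called higher and none lower, with Hadh at a log2FC of 4.04 (SE 0.18) and Decr1 at 3.42 (SE 0.20). Ketone body genes had 4 of 5 called higher, among them Bdh1 at 3.58 (SE 0.17). Uptake genes, other than the 2 transporters above, had 0 of 8 called higher and 5 lower. Cd36, the fatty acid translocase of platelets and monocytes among others, had a log2FC of -5.63 (SE 0.29, adjusted p = 6.13e-08 in edgeR), and Emb -4.15 (SE 0.51, adjusted p = 2.69e-05 in edgeR). Of the receptors, Hcar2 was lower in the colon, with -2.66 (SE 0.77, adjusted p = 0.0095 in edgeR), and Ffar2, a receptor for acetate and propionate, was higher, with 2.47 (SE 0.79, adjusted p = 0.01533 in edgeR). Hcar1, the lactate receptor, had 0 counts in all 6 blood libraries, and its colon mean was at least 8.71-fold above the floor. Fabp2 and Pdk4 had 0 counts in all 6 blood libraries, and their colon means were at least 601-fold and at least 103-fold higher than the floor.

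In blood, the labelled comparison could be fitted for 6 of the 9 genes. None was called, as 0% of all 16759 genes were; 241 genes (1.44%) were under 0.05 by unadjusted p, the 6 not among them. That number was 819 without mouse 1, with 2 genes called higher and 1 lower, and 653 without mouse 4 and 381 without mouse 2. Over all genes, DESeq2 called 4 higher and 2 lower and limma-voom 0, and neither called any of the 6. Pparg had 53.7, 61.7 and 51.6 normalized counts in the blood libraries labelled UC (mice 1, 2 and 4) and 86.5, 91.9 and 80.3 in those labelled control (mice 7, 8 and 9). The labelled groups did not overlap, as for 6.5% of all genes tested, with a log2FC of -0.64 (SE 0.32, adjusted p = 0.9998 by edgeR's quasi-likelihood test). The other 5 genes overlapped. Acads had 247, 154 and 177 against 159, 122 and 116, a log2FC of 0.54 (SE 0.29, adjusted p = 0.9998 in edgeR). Cpt1a was highest in mouse 1 in blood as in colon, with 2572 normalized counts against 1307 to 1832. Slc16a1 had 3042, 4767 and 3097 in mice 1, 2 and 4 and 2610, 3997 and 3016 in mice 7, 8 and 9, so mice 2 and 8 were the highest in blood.

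The effect of the UC label did not pass the test of a difference between tissues for any of the 8 genes with a count in blood, where edgeR called 0.0043% of 23258 genes. Ppara, with 0 counts in blood, has no blood effect to compare. Slc5a8 had an unadjusted p of 0.04414 (adjusted p = 1 in edgeR), which rests on the 12 counts of 1 blood library. The estimates for the genes with counts in every blood library ran from -0.24 for Acads to 0.78 for Pparg.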

How the data were processed

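Total RNA-seq of 12 mouse libraries was analysed from the authors' tables. Per the study's methods, reads were trimmed, freed of ribosomal reads, mapped to GRCm38 with STAR and quantified with StringTie 1.3.4c on an Ensembl annotation. The deposited counts are estimated counts per gene, which the authors derived from StringTie's coverage, so they are whole numbers but no tally of reads, and totals bound only counting precision. StringTie was run at default settings, without a strand option; exons of the 9 genes overlapped no exon of another gene in GENCODE M21. The deposited normalized counts are on a signal scale: the authors had divided each library's counts by its own factor (the same for 100% of genes), separately by tissue, so they were compared within a tissue only.

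The test was edgeR 4.0.16 in R 4.3.3 (filterByExpr, TMM, glmQLFit, glmQLFTest, Benjamini-Hochberg adjustment over all genes), each tissue alone, and all 12 libraries for tissue and for the difference of effects. A call needed both an absolute log2FC over 1 and an adjusted p no higher than 0.05, except for the difference of effects, where the adjusted p alone counted. SE is the log2FC over the root of the F statistic. Alternatives were RLE normalization, other filters, DESeq2 1.42.0, limma-voom (limma 3.58.1), 1 fit of all libraries, mice left out in turn and the mouse as a replicate block. Colon and blood came from the same 6 mice, with numbers from the titles; deviations from labelled group means correlated at r = 0.0857 to 0.271 over 15802 genes, which are not independent replicates. The scripts were tested on simulated data. Levels per length used merged exons.

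The members, lists and comparisons were chosen with earlier results of these data known. Named were the 9 genes, pathway genes called by label (none was), per list the 2 tested genes with the largest absolute log2FC by label in colon and between tissues (not all of them are printed), the 3 genes most like each member whose log2 range reached 1, S100a8 and, per marker list, its most abundant gene where a result touched it. Alpi, Apoa4, Slc26a3, Aqp8, Car4, Muc3, Ceacam20, Krt20, Guca2a, Ffar2, Acadsb, Acad10, Acss1, Crat, Etfdh, Acot1 and Plin2 were named after their values were seen. Libraries within a group came from separate mice. One gene was left out of the pathway lists and is not reported here.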

Additional observations from a re-analysis of the deposited data

How the results depend on the processing

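No call of the 9 genes changed under any alternative run, and no pathway gene was called by label under any. Between tissues, 59 to 64 pathway genes were called in either direction over the alternatives. In the main fit, only 76 of the 93 pathway genes tested passed the filter in each tissue alone. Of all 23258 genes tested in that fit, 37.7% were called higher in the colon and 20.8% lower. With the mouse as a replicate block, 63 pathway genes were called between tissues, where 8255 of all 23258 genes were called higher and 4634 lower. The 6 of the 9 genes that passed the filter in each tissue alone were all called there. Slc5a8, Ppara and Angptl4 passed it only through the colon and had to differ. For the difference of effects, 0 of the 9 genes were called with that block. Against 117 tissue estimates that kept their sign, 7 of 117 estimates by label in colon, 5 of 78 in blood and 8 of 117 for the difference of effects turned sign, each without being called. With limma-voom, Pparg in colon was -0.0102; the cause was not tested. With single mice left out, log2FC estimates that changed sign ran as follows. In colon, Cpt1a ran from -0.12 to 0.20, Ppara ran from -0.10 to 1.59, Pparg ran from -0.70 to 0.61, Ppargc1a ran from -0.13 to 1.72. In blood, Acadm ran from -0.29 to 0.0185, Cpt1a ran from -0.12 to 0.40, Ppargc1a ran from -0.27 to 0.72, Slc16a1 ran from -0.067 to 0.38. For colon minus blood, Angptl4 ran from -2.37 to 0.32, Cpt1a ran from -0.30 to 0.002, Ppara ran from -0.13 to 1.60, Pparg ran from -0.10 to 1.24, Ppargc1a ran from -0.60 to 1.74, Slc16a1 ran from -0.0858 to 0.39. The range of Ppara has no blood count behind it and is no estimate of a difference. Fold ranges and length-scaled levels moved by less than the spread between libraries. With a pseudocount of 10, 2 of the 3 most similar genes were shared for Cpt1a and Angptl4 and 3 of 3 for the other genes; with a mean of at least 10, 3 of 3 were shared for all. Blood values of Slc5a8, Ppara and Angptl4 are limited by their counts.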
